A study of Mus musculus with 8 samples.

Results

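Constant lamina-associated cores are the stretches of the mouse genome that lay in a lamina-associated domain (LAD) in all 4 LAD lists of the series at the same time. They were found by intersecting the 4 lists base by base and keeping every merged stretch of at least 100 kb. This left 2170 cores of 5724 stretches shared by the 4 lists, and the cores held 85.2% of the shared length. The series mapped contacts between chromatin and the nuclear lamina in 3T3-L1 cells, a mouse line of preadipocytes that turn into fat cells in culture, and asked how these contacts depend on adipogenesis and on the nuclear envelope proteins Tmem120a and Tmem120b.

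The first list came from untreated preadipocytes at day 0. The second came from adipocytes at day 9 of differentiation that carried a control shRNA. The labels call it a non-target shRNA, while the authors describe an empty shRNA vector as the control of the knockdown. The third list came from adipocytes at day 9 with Tmem120a shRNA, and the fourth from adipocytes at day 9 with Tmem120a/b shRNA. Induction used insulin, dexamethasone, 3-isobutyl-1-methylxanthine and rosiglitazone, and the 3 adipocyte groups thus share this treatment and an shRNA vector that the preadipocytes lack. All cells of the assay were transduced with lentivirus carrying Dam alone or the LaminB1-Dam fusion. Behind every list stand 2 libraries, 1 made with LaminB1-Dam and 1 with Dam, 8 in all and with no replicate, so a list and its condition cannot be told apart from its pair of libraries. The lists give positions without scores, and the read depth behind them is unknown. No expression was measured in the files used, so the labelled cell types could not be checked against marker genes.

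The nuclear lamina is a meshwork of lamin proteins beneath the inner nuclear membrane. LADs are large domains that touch it, and in many cell types they are gene-poor, rich in A and T and low in transcription. In DamID, the bacterial adenine methylase Dam is fused to lamin B1 and marks the adenine of GATC sites near the lamina, and DpnI then cuts the methylated sites, so a GATC site is the unit of resolution. Domains shared by many cell types are known as constitutive LADs and are often contrasted with facultative LADs, which form or dissolve as cells differentiate. The 4 conditions here are all of 1 cell line, so the word constant is used only for these 4 lists.

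To show what the cores are made of, the sequence at the middle of the 3 longest cores is set beside that at the middle of 2 of the 3 longest stretches that lay in no LAD list. Each run is 240 bases of the plus strand of mm9 (NCBIM37), chosen to lie outside annotated exons, and capitals mark CG dinucleotides. The core run on chromosome 6 lies in an intron of Grm7 and the run on chromosome 5 outside LADs in an intron of Wdr66, while the other runs are intergenic.
core chr16:73858389-73858628: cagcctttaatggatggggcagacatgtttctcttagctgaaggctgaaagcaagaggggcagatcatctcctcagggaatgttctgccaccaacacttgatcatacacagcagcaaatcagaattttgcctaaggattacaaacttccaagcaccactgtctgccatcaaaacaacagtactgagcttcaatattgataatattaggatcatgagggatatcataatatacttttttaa
core chr11:37881343-37881582: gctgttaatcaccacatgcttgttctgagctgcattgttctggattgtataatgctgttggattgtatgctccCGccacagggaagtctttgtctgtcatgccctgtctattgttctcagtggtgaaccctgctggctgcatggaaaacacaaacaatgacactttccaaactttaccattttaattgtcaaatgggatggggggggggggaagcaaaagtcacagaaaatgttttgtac
core chr6:110761855-110762094: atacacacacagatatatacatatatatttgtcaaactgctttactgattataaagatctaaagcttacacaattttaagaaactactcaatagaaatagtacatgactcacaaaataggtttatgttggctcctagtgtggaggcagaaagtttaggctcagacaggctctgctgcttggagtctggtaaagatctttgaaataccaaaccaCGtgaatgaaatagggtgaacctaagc
no LAD chr16:31900281-31900520: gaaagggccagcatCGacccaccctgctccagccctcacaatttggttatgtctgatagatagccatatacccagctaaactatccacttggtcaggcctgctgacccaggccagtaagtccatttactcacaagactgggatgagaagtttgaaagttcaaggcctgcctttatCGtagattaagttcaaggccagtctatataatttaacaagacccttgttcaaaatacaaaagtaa
no LAD chr5:123732648-123732887: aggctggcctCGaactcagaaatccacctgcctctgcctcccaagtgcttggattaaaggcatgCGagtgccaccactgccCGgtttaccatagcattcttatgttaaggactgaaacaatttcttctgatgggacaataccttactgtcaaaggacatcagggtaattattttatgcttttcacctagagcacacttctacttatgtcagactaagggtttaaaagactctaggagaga

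The 3 core runs held 0, 1 and 1 CG dinucleotides, and the 2 runs outside LADs held 2 and 3. Their GC contents were 40.4%, 44.6% and 35.8% in the cores against 44.2% and 44.2% outside, so that a single run of this length does not always tell a core from other sequence.

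The edges of the cores fell on the assay's own sites. Below are the 60 bases on each side of both borders of the longest core (chromosome 16), of the left border of the second longest (chromosome 11) and of the right border of the core next in length (chromosome 6), with every GATC in capitals.
chr16:72228974-72229093: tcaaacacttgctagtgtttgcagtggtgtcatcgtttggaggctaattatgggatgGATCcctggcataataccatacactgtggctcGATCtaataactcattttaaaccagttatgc
chr16:75487925-75488044: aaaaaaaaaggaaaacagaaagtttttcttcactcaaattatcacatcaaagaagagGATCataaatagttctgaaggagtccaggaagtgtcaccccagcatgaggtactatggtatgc
chr11:36340090-36340209: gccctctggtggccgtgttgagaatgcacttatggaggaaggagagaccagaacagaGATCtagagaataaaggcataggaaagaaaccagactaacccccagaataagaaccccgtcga
chr6:112136650-112136769: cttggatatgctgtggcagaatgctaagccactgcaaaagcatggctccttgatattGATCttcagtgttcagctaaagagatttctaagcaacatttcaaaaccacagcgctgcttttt

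In each of these runs a GATC spans the middle, where the core starts or ends. The first border was set by the double knockdown list, the second by the preadipocyte and adipocyte lists together, the third by the Tmem120a knockdown list, within an intron of Odz2, and the fourth by the double knockdown list. Across the whole lists, 98.3% of preadipocyte, 97.3% of adipocyte, 98.9% of Tmem120a knockdown and 99.1% of double knockdown LAD borders lay within 4 bases of a GATC in mm9.

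The cores summed to 779.1 Mb, which was 29.3% of mm9 and 53.5% of the 1455.7 Mb that lay in a LAD of any list. Since these lengths follow from the rule, they are given as a description. The median core was 237.3 kb long, with quartiles of 149.5 and 435.1 kb. The 895 cores of 100 to 200 kb held 16.3% of the core length, while the 110 cores of at least 1 Mb held 20.9%. The 3554 shared stretches below the minimum had a median of 33.2 kb and summed to 135.8 Mb.

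**Figure D1:**
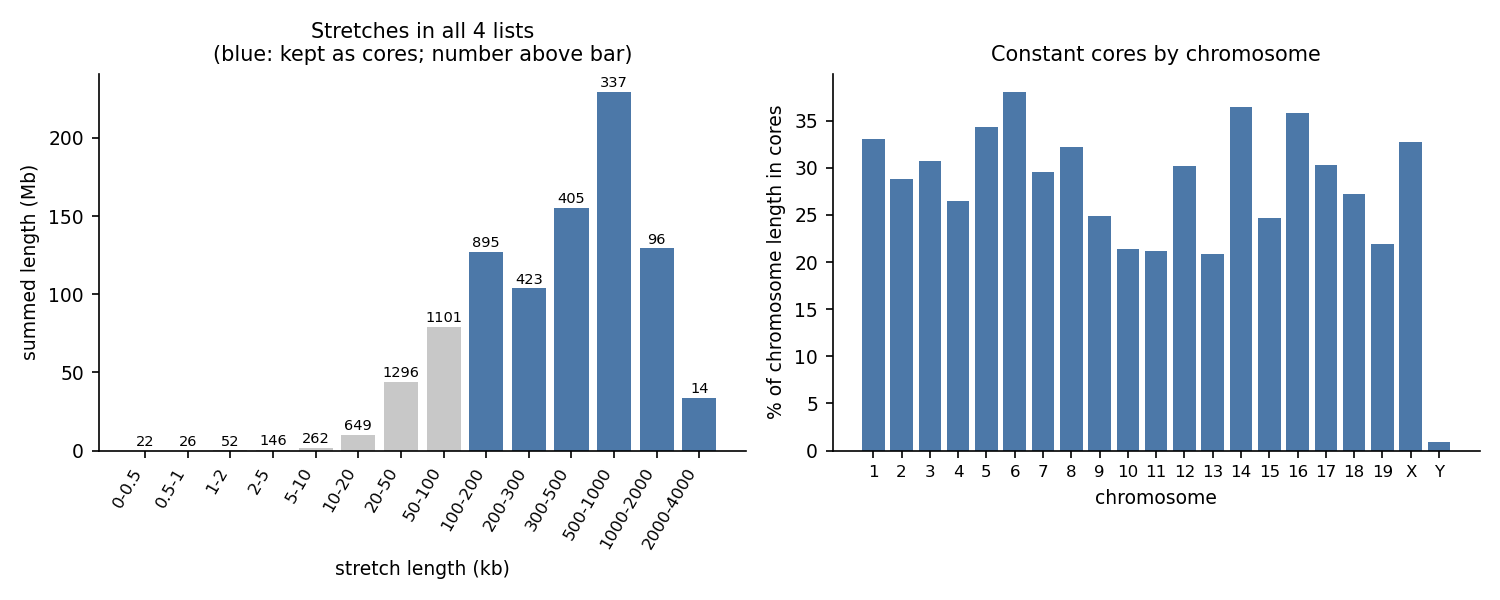
Left, summed length in Mb of the stretches shared by all 4 LAD lists by length class in kb, with the number of stretches above each bar and the classes kept as cores in blue. Right, share of each chromosome's length in cores, which ran from 20.8% on chromosome 13 to 38.1% on chromosome 6, with 0.946% on Y.

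Close to the threshold, the 3 shortest cores measured 100.035 kb on chromosome 17, 100.085 kb on chromosome 6 and 100.157 kb on chromosome 19, and the 3 longest stretches left out measured 99.995 kb on chromosome 7, 99.837 kb on X and 99.803 kb on chromosome 1. The shortest core held Adcyap1, which encodes the neuropeptide PACAP, and the second shortest held Klra3 and Klra10, natural killer cell lectin receptors.

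The longest core spanned 3259 kb at chr16:72229034-75487984 and held 2 protein-coding genes wholly, Robo1 and Robo2, receptors for the axon guidance cue Slit. The second, 3083 kb at chr11:36340150-39422776, held no protein-coding gene wholly and met only Odz2, a teneurin adhesion protein of neurons. The third, 2749 kb at chr6:109387240-112136709, held Grm7, a metabotropic glutamate receptor. The fourth, 2582 kb at chr6:43944863-46526892, held Rbpsuh-rs3 and took in part of Cntnap2, a neurexin-like adhesion protein. The fifth, 2541 kb at chr5:9422849-11963749, held 17 protein-coding genes, among them Grm3, another metabotropic glutamate receptor, Speer1-ps1 and 14 predicted genes with Gm names. In 4 of these 5 cores at most 2 protein-coding genes thus lay wholly inside. The ninth, 2194 kb at chr1:31231162-33425202, was the longest of chromosome 1 and held 5 protein-coding genes, among them Khdrbs2, an RNA-binding protein, and Lgsn, a lens protein. The tenth, 2181 kb at chr5:17949708-20131013, met Magi2, a synaptic scaffold protein, of which 94.6% lay in cores. A second annotated entry of that name, 0.515 kb long, lay wholly inside.

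The host LADs of the longest core measured 3624 kb in preadipocytes, 4985 kb in adipocytes, 3518 kb with Tmem120a knockdown and 3348 kb with the double knockdown. The core filled 89.9%, 65.4%, 92.6% and 97.3% of them. The core of 2350 kb on chromosome 9, which held Htr1b, a serotonin receptor, and Mei4, a meiotic recombination gene, was nearly the whole domain in every list, filling 98.5%, 98.7%, 98.6% and 100% of its LADs. The olfactory receptor core on chromosome 2 differed, since it filled 44.6% and 44.1% of the preadipocyte and adipocyte LADs, 99.1% of the Tmem120a knockdown LAD and 55.7% of the double knockdown LAD.

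By chromosome, the cores took the largest shares on chromosomes 6 (38.1%), 14 (36.5%) and 16 (35.8%), and among autosomes the smallest on 13 (20.8%), 11 (21.1%) and 10 (21.4%). The X chromosome was cut most finely, with 243 cores of 177 kb in the median and none longer than 802 kb. The longest core elsewhere ran from 1135 kb on chromosome 19, where it held 13 Cyp2c genes, to the 3259 kb of chromosome 16. Y had a single core, of 150.5 kb with Gm3395. Other chromosomes' longest cores held Pcdh10, a protocadherin (chromosome 3), Lingo2 (4), Hs3st4, a heparan sulfate sulfotransferase (7), 1700047G07Rik (8), Slc16a7, a monocarboxylate transporter (10), Nrxn3, a presynaptic neurexin (12), Zfp640 with Vmn2r pseudogenes (13), Slitrk1 (14) and part of Il1rapl2 (X) and of Dcc, the netrin receptor (18). The longest cores of chromosomes 15 and 17 met no protein-coding gene.

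The next question was which list limits a core. Of the 4340 core borders, 616 (14.2%) were a LAD border of the preadipocyte list, 389 (8.96%) of the adipocyte list, 1297 (29.9%) of the list with Tmem120a knockdown and 2355 (54.3%) of that with the double knockdown. The 95% Wilson intervals over borders were 13.2 to 15.3%, 8.15 to 9.85%, 28.5 to 31.3% and 52.8 to 55.7%, and they cover the number of borders only, not replicate error. Both borders came from the double knockdown list in 703 cores, from the Tmem120a knockdown list in 220, from preadipocytes in 57 and from adipocytes in 35. The rule picks the innermost border. There were 3914, 2542, 5723 and 6971 LADs in the preadipocyte, adipocyte, Tmem120a knockdown and double knockdown lists, with summed lengths of 1193, 1198, 1164 and 1161 Mb. The shares of borders were in the order of the numbers of LADs and in the reverse order of the summed lengths. These measures cannot be told apart here, and neither can the knockdown and the library pair.

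Outside a core, the other lists usually went on. Beyond the core border, LADs reached a median of 218 kb further in preadipocytes, 416 kb in adipocytes, 62.8 kb with Tmem120a knockdown and 0 kb with the double knockdown. In the 5 kb just outside the borders, 84.5% of bases were still in a preadipocyte LAD, 89.9% in an adipocyte LAD, 68.7% in a Tmem120a knockdown LAD and 44.4% in a double knockdown LAD. At 195 to 200 kb outside, the 4 shares had come together at 75.4%, 77.5%, 74.7% and 73.5%.

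**Figure D2:**
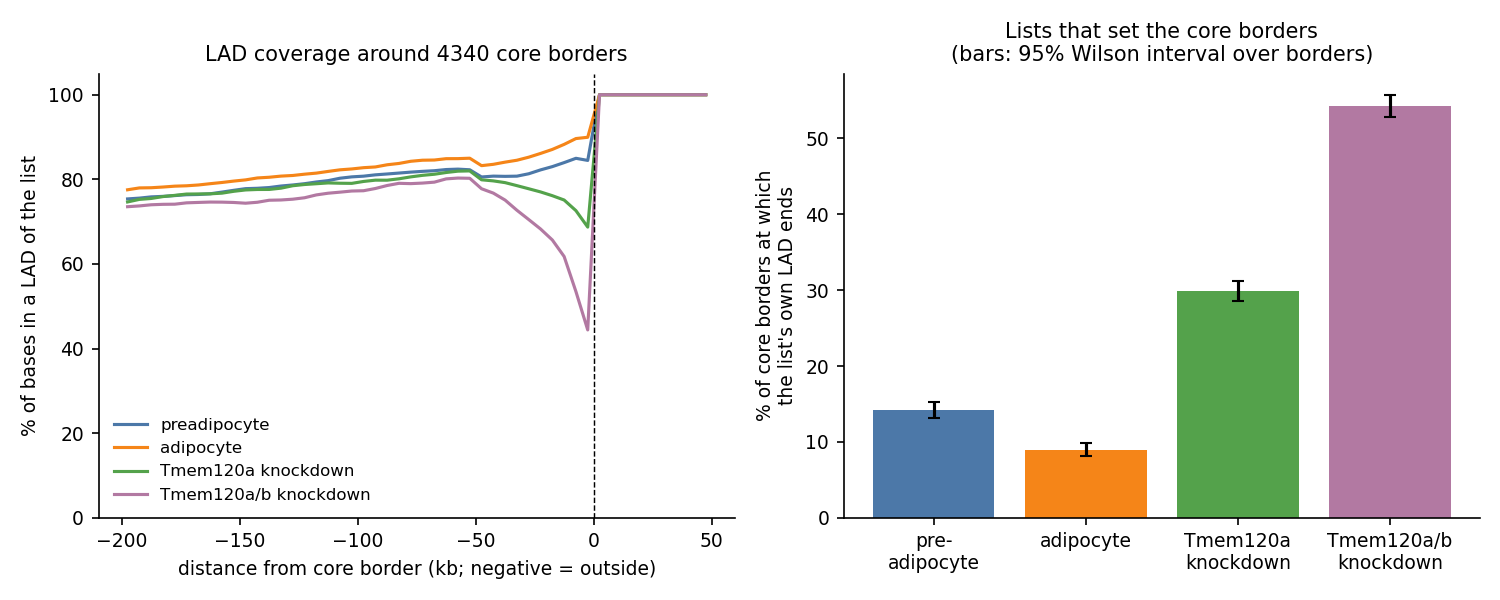
Left, share of bases in a LAD of each list by distance from the core border in 5 kb bins, with negative distances outside the core. Coverage is 100% inside by the rule, and the double knockdown curve has the deepest dip next to the border, at 44.4%. Right, share of the 4340 core borders that were a LAD border of each list, with 95% Wilson intervals over borders. Bars can share a border and so sum to more than 100%.

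Seen from the LADs, a core sat in 1056 preadipocyte, 856 adipocyte, 1351 Tmem120a knockdown and 1823 double knockdown LADs. The LADs that hosted a core, counted once for each core, had median lengths of 1031, 1559, 692 and 388 kb. The double knockdown LAD was mostly filled by its core, to at least 80% for 1205 cores, against 613 for the Tmem120a knockdown, 283 for preadipocytes and 186 for adipocytes. One adipocyte LAD of 10.0 Mb, at chr1:110146368-120177535, held 27 cores, while no LAD of the double knockdown list held more than 4.

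Between neighbouring cores there were 2149 gaps with a median of 77.4 kb, and 942 were under 50 kb. The double knockdown list alone opened 634 gaps, with a median of 14.2 kb. The Tmem120a knockdown list alone opened 216, the preadipocyte list alone 64 and the adipocyte list alone 23. A further 200 gaps, with a median of 94.1 kb, were opened by both knockdown lists and no other. In 753 gaps all 4 lists opened somewhere, and these were long, with a median of 977 kb. Many cores that lie side by side are thus pieces of 1 longer domain of the preadipocyte and adipocyte lists.

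Borders that all lists placed at the same position were rare and had a common feature. At 4097 of the 4340 borders only 1 list had a border within 1 kb, at 129 borders 2 lists, at 12 borders 3 lists and at 102 borders all 4. Of the 102 borders with 4 lists, 99 (97.1%) abutted a run of unsequenced bases (N) that filled most of the first 5 kb outside the core, against 4 (0.0976%) of the 4097 with 1 list. The 3 others were the left borders of the first core on chromosomes 1 and 9, 14.8 and 7.43 kb from the first unsequenced base, and the right border of the last core on chromosome 14, 0.535 kb from its end. The run of N was 50 kb long at 89 of the 104 borders of this kind, and at 91 of the 104 all 4 lists had a LAD again in the first 5 kb beyond it. X carried 27 of these borders, chromosome 14 had 14, chromosome 7 had 13 and chromosome 4 had 12.

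Within 10 kb of the borders of all 4 lists, 17 protein-coding genes had their start, of which 14 had Gm symbols of predicted genes and 2 were vomeronasal receptors. Such a start was present at 11 of these 102 borders (10.8%), beside 301 of all 4340 core borders (6.94%). The share of Gm symbols over all genes is not given here. The nearest starts were those of Gm3371 on chromosome 14, 0.352 kb inside its core, and Gm11009 on chromosome 2, 0.442 kb inside. Next came Gm11168 on chromosome 9, Gm10230 on X, Gm3483 on chromosome 14, Gm10721 and Gm10722 on chromosome 9, Gm1973 and Gm2963 on chromosome 14 and Vmn1r109 on chromosome 7, the last at 6.53 kb. Of the 17 genes, 5 were at the left border of the first core of chromosome 9, which is 1 of the 3 that did not abut a run of N.

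Without the borders at assembly gaps, the composition changed most at borders where all 4 lists ended close together. These were grouped by the longest extension of any list: at 464 borders all 4 LADs ended within 50 kb, at 1573 a LAD of at least 1 list went on for 50 to 500 kb, and at 2199 for more than 500 kb. In the first group the median GC content was 41.8% in the 50 kb outside and 40.9% in the 50 kb inside, the outside being higher at 331 of 450 borders (73.6%). In the second group the medians were 40.6% and 40.2% (60.4% of borders higher outside), and in the third 38.2% and 38.0% (53.5%).

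Gene starts followed the same order. In the first group there were 15.4 protein-coding gene starts per Mb in the 50 kb outside against 8.79 inside, in the second 6.19 against 5.56, and in the third 2.55 against 2.61. In the first group the starts were densest between 20 and 30 kb outside, at 19.6 per Mb (88 starts), were at 7.38 per Mb (34 starts) in the last 10 kb before the border and at 8.62 (40 starts) in the first 10 kb inside it. The double knockdown list set 64.5% of the borders in the third group and 30.4% in the first. These groups were formed after the values were seen, and no test was made of their difference.

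**Figure D3:**
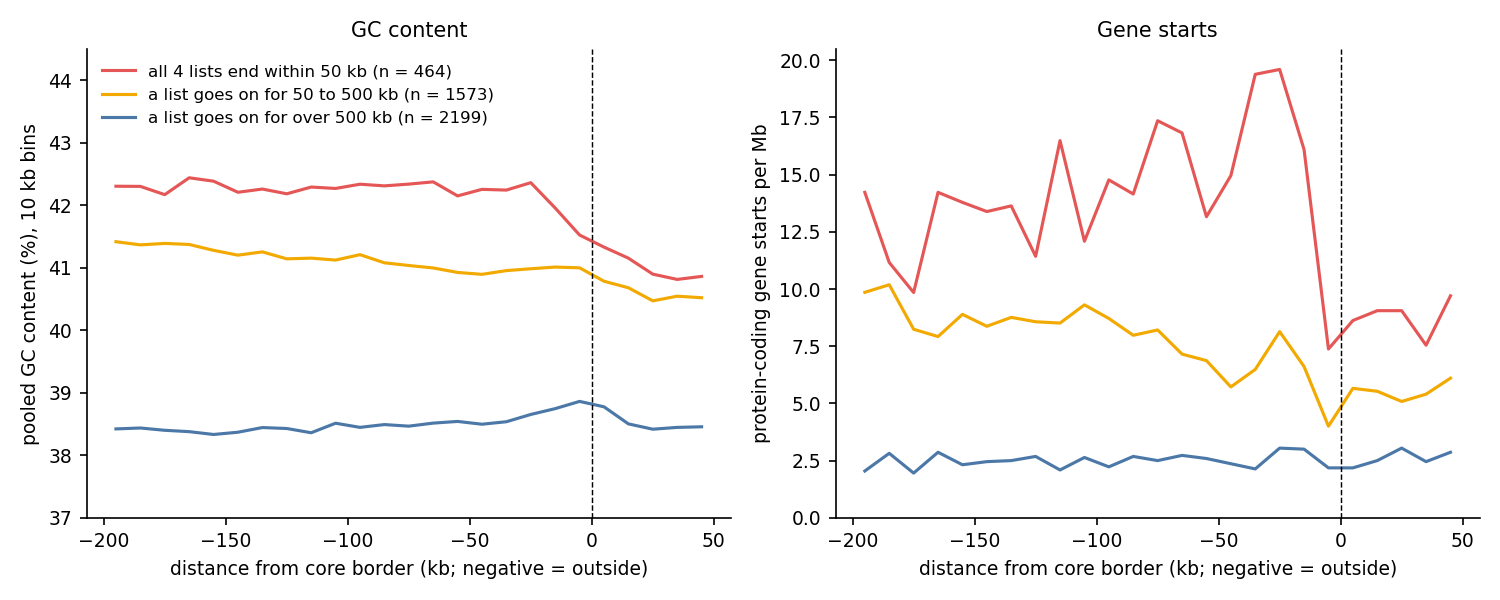
Pooled GC content in percent (left) and protein-coding gene starts per Mb (right) in 10 kb bins by distance from the core border, negative outside, for 3 groups of borders split by how far the longest-reaching LAD goes on. Where all 4 lists end within 50 kb, gene starts are at 15.4 per Mb in the 50 kb outside and 8.79 in the 50 kb inside, with the lowest bin, at 7.38, in the last 10 kb outside. Where a list goes on for over 500 kb they are at 2.55 and 2.61.

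The base composition of the cores, which the rule did not use, differed from that of sequence in no LAD list, and by less from that of other LAD sequence. Pooled GC content was 39.0% in cores and 44.2% in sequence in no LAD list, and it was lower in cores on the 19 autosomes and X. Y went the other way, with 39.8% in its single core and 38.8% outside LADs. CG dinucleotides numbered 5.89 per kb against 10.6 per kb, which was 0.155 against 0.217 of the number that the C and G contents give. Runs of at least 10 bases of only A and T covered 4.63% of cores and 3.23% of sequence outside LADs. The GATC sites on which the assay depends were about as dense in both, at 2.59 and 2.41 per kb.

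Among single regions, the median GC content was 39.0% over the 2170 cores (5th to 95th percentile 36.3 to 44.3%) and 43.3% over the 2145 stretches of at least 100 kb in no LAD list. The distributions overlapped, since 179 cores lay at or above the latter median and 154 stretches outside LADs at or below the former. The lowest core, at 34.5%, overlapped Pcdh11x, a protocadherin gene, on the X chromosome, and the highest, at 48.6%, was a core of 242 kb near the end of chromosome 4 (chr4:152202708-152445010) that met no protein-coding gene. GC content fell with length, from a median of 39.6% in cores of 100 to 150 kb to 37.8% in those of at least 1 Mb. Spearman's rho between length and GC over the 2170 cores was -0.19, given as a description because neighbouring cores share a domain.

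**Figure D4:**
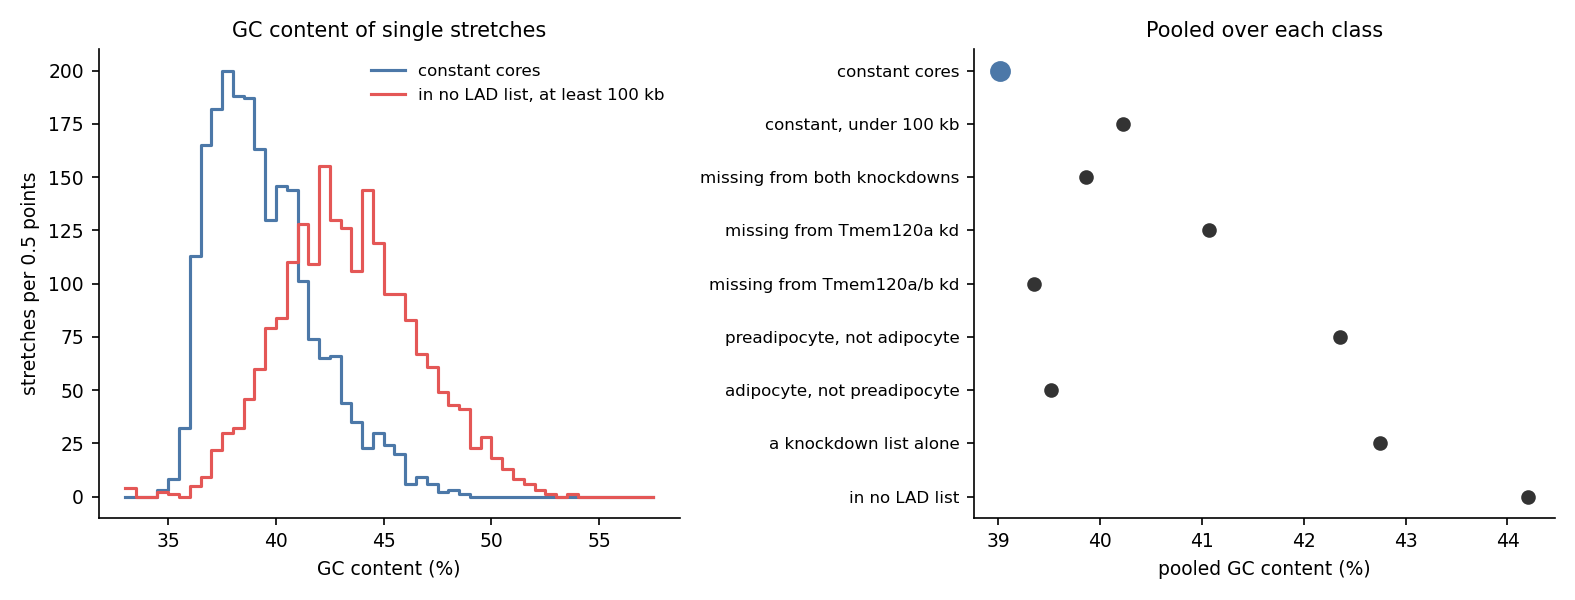
Left, number of constant cores and of stretches of at least 100 kb in no LAD list by GC content in bins of 0.5 percentage points. Right, pooled GC content in percent of the cores, which have the lowest pooled value at 39.0%, and of 8 other classes of sequence, on an axis that does not start at 0.

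Other LAD classes lay between these ends. Pooled GC content was 40.2% in the shared stretches under 100 kb and 39.9% in stretches present in preadipocytes and adipocytes but missing from both knockdown lists. It was 41.1% in those missing from the Tmem120a knockdown list alone and 39.3% in those missing from the double knockdown list alone. Sequence of preadipocyte LADs that was in no adipocyte LAD had 42.4%, while that of adipocyte LADs in no preadipocyte LAD had 39.5%, and LADs of the knockdown lists alone had 42.8%. The order depended on the measure, since the median over stretches of at least 20 kb was 38.7% for those missing from the double knockdown list, below the 39.0% of the cores, and 39.1% for those missing from both knockdown lists. By pooled values, and with Y left out, cores were lower on all 20 chromosomes than shared short stretches, than those missing from the Tmem120a knockdown, than preadipocyte-only and than knockdown-only sequence. The comparison was less uniform for adipocyte-only sequence (14 of 20), for stretches missing from both knockdowns (16 of 20) and for those missing from the double knockdown (13 of 20).

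Protein-coding genes started 4.01 times per Mb in cores, against 14.1 times in sequence in no LAD list, 4.53 in the short shared stretches, 4.31 in stretches missing from the Tmem120a knockdown list alone, 7.35 in preadipocyte-only sequence and 8.44 in sequence of the knockdown lists alone. The cores were not the LAD sequence with the fewest starts: there were 3.28 per Mb in adipocyte-only sequence, 3.35 in stretches missing from the double knockdown list alone and 3.89 in those missing from both knockdown lists.

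The authors' own lists of regions that differ between preadipocytes and adipocytes drew on the same libraries as the rule and are given as a description. Of the 2021 released regions, found in preadipocyte LADs and no longer in adipocyte LADs, 135 (6.68%) touched a core and 415 (20.5%) lay within 100 kb of one. Of the 1808 recruited regions, 275 (15.2%) touched a core and 631 (34.9%) lay within 100 kb. A longer region meets a core more easily, and the lengths of the released and recruited regions were not compared. No share over other stretches is given either, so the released and recruited shares were not tested against each other or against a background. A recruited region touched 2 cores or more in 34 cases, and a released region in 4.

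Of 22367 annotated protein-coding genes (GENCODE vM1 on NCBIM37), 2814 lay wholly in 1 core, a background of 12.6% against which the lists below are read. A further measure, any contact with a core, held for 3371 genes, a background of 15.1%, and 3128 genes, a background of 14%, started in a core. In no LAD list at all lay 14251 genes (63.7%). The genes wholly in cores had a median length of 2.51 kb against 15.6 kb for genes in no LAD, but the requirement to fit into a core leaves out long genes, and 1122 of the 2814 were olfactory and vomeronasal receptors, with a median of 0.963 kb. The other 1692 had a median of 7.17 kb. Over the 1993 genes other than receptors that start in a core, whether or not they fit, it was 9.91 kb. Of the 200 genes of at least 500 kb, 24 lay wholly in 1 core, a share of 12% that is near the background. A core was touched by 124 of them (62%), a measure that a longer gene meets more easily. Of the cores, 946 (43.6%), which summed to 276 Mb, met no protein-coding gene. The count was 602 without the double knockdown list and 1596 with a minimum length of 50 kb. A longer core meets a gene more easily. Protein-coding gene starts in cores numbered 4.05, 4.01 and 3.89 per Mb with minimum lengths of 50, 100 and 200 kb, so their density did not rise with length. The share of cores without a gene dropped from 53.2% of those of 100 to 150 kb to 17.3% of those of at least 1 Mb. At the other end, 60 cores with 10 or more genes held 1220 genes, 43.4% of all genes wholly in cores.

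The lists below were matched by symbol, counting each symbol once by its longest entry and leaving out genes that only share the start of a family's name (Grid2ip, Col4a3bp, Psmc3ip, Rps19bp1 and the Rps6k kinases). Chemosensory receptors formed the largest group. Olfactory receptors, the odour sensors of nasal neurons, lay wholly in cores for 875 of 1113 genes (78.6%, Wilson interval 76.1 to 80.9%), in 65 cores. The core with the most genes, chr2:85103259-87407419, held 103 protein-coding genes, of which 100 were Olfr genes, among them Olfr1000, Olfr1002, Olfr1006, Olfr1008 and Olfr1009. The core next to it, chr2:87419454-89222949, held 84 genes, all Olfr, and cores on chromosome 10 (chr10:128474198-129838357) and 17 (chr17:37475018-38631506) held 55 and 33. Vomeronasal receptors, which sense pheromones, were in cores for 141 of 202 Vmn1r genes (69.8%) and 106 of 125 Vmn2r genes (84.8%), and no Vmn2r gene lay outside all 4 LAD lists. Genes of such families lie side by side and share their core, so the intervals overstate the precision.

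Defensins and cytochrome P450 genes were also above the background. Defensins, antimicrobial peptides, lay wholly in cores for 36 of 53 genes (67.9%, Wilson interval 54.5 to 78.9%), in 5 cores, with 12 of them in chr8:22633297-23084903. Cytochrome P450 genes did so for 33 of 98 (33.7%, interval 25.1 to 43.5%), led by the 13 Cyp2c genes of drug and fatty acid metabolism on chromosome 19 (chr19:39131727-40266657). Keratins and keratin-associated proteins did so for 19 of 100 genes, all 19 in 3 neighbouring cores of chromosome 16. In no LAD were 57 of the 100, beside 63.7% of all protein-coding genes. The interval of the keratin share in cores, 12.5 to 27.8%, reached the background. The same held for serpins, at 8 of 60 (13.3%), for chemokines and their receptors, at 4 of 53 (7.55%, interval 2.97 to 17.9%). Zfp zinc fingers, at 15 of 367 (4.09%, interval 2.49 to 6.63%), were below the background. For potassium channels and their auxiliary subunits (Kcn symbols), at 5 of 94 (5.32%, interval 2.29 to 11.9%), this depended on the count, since by annotated entry it was 6 of 96 (6.25%, interval 2.90 to 12.97%), and 17 of the 94 (18.1%) touched a core.

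Genes of neuronal adhesion and synapses, a list chosen with earlier results of these data known, met cores often. Of 42 listed genes, with Tenm2 under its annotated name Odz2, 15 (35.7%) lay wholly in a core, and 38 (90.5%) touched one, against the background of 15.1%. These genes are long, and 29 of the 30 of at least 500 kb touched a core, beside the 124 of all 200 genes of that length. Of the 12 shorter genes 9 touched a core. The list includes Sgcz, a sarcoglycan, without which 14 of 41 lay wholly in a core. Of the GABA-A receptor subunits, ion channels of inhibitory synapses, 8 of 19 lay wholly in 3 cores, on chromosomes 5, 7 and 11. Ionotropic and metabotropic glutamate receptors did so for 5 of 26, with an interval of 8.51 to 37.9% that includes the background, and touched cores for 12 of 26. Cadherins and protocadherins did so for 13 of 59 (22.0%, interval 13.4 to 34.1%) and touched cores for 23. Of the 13, 6 were Pcdhb genes side by side in 1 core of 106.7 kb, near the minimum length, and without that core's genes the share was 7 of 53 (13.2%), near the background.

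The 10 longest genes wholly in a core were Nrxn3 (1612 kb), Lingo2 (1245 kb), Sgcz (1139 kb), Erbb4 (1076 kb), Cntn4 (1022 kb), Grm7 (922 kb), Dpyd (871 kb), Grm8 (860 kb), Lrrtm4 (791 kb) and Dpp10 (713 kb). Nrxn3, Cntn4 and Lrrtm4 are synaptic or axonal adhesion proteins, Erbb4 is a neuregulin receptor, Sgcz a sarcoglycan, Dpyd degrades pyrimidines, and Dpp10 modulates potassium channels. Each lay in a LAD over its whole length in all 4 lists, as the rule requires. The genes with most sequence in cores were longer still and were cut by core borders. Cntnap2 had 2076 kb in 2 cores (92.6% of the gene), Lrp1b, a lipoprotein receptor relative, had 2047 kb in 3 cores (99.4%), Ptprd, a receptor tyrosine phosphatase, had 2043 kb in 3 cores (89.98%), and Csmd1 had 1636 kb in 2 cores (99.6%).

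Among the annotation classes, V segments of antigen receptors, which are joined to other segments in lymphocytes, had the highest share. Of 355 segments annotated as V genes, 313 (88.2%) lay wholly in cores. All 112 segments on chromosome 12, where the immunoglobulin heavy chain lies, were in 2 cores, as were 101 of 108 on chromosome 14 (T cell receptor alpha and delta) in 6 cores. On chromosome 6, 87 of 97 Igk segments were in cores and 7 of 22 Trb segments. None of the 7 segments of the T cell receptor gamma locus on chromosome 13 was in a core. J segments differed from V segments, with 4 of 88 in cores. Pseudogenes (31.3%), snoRNA (30.6%) and snRNA (23.2%) were more often, and lincRNA (5.18%) less often, wholly in cores than protein-coding genes (12.6%).

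**Figure D5:**
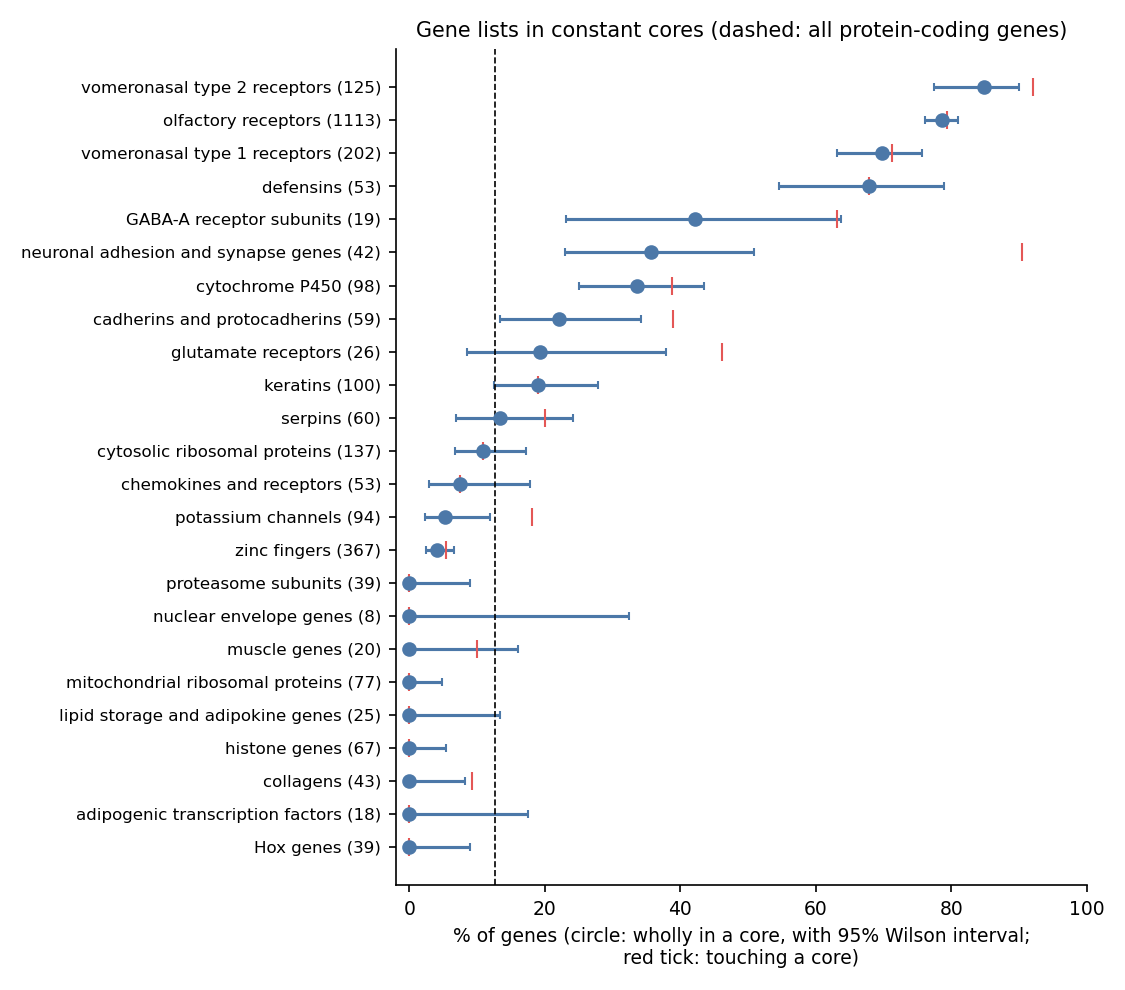
Share in percent of each gene list that lay wholly in a core (circles, with 95% Wilson intervals over genes) or touched a core (red ticks), with the number of genes, each symbol counted once, in brackets. The dashed line marks the 12.6% of all protein-coding genes. The chemosensory families and defensins stand highest, neuronal adhesion genes have the widest space between wholly in and touching, and the adipogenic, proteasome, histone and Hox lists are at 0.

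Genes that fat cells or all cells use mostly lay outside the cores, as did most protein-coding genes, of which 12.6% lay wholly in a core. None of 18 adipogenic transcription factors annotated as protein-coding, of 19 listed, touched a core. Of the 18, 17 were in no LAD list, beside 63.7% of all protein-coding genes. The gene left of the 19, Cebpd, is annotated as a pseudogene and was in no LAD list either. The exception among the 18 was Prdm16, a regulator of brown fat, with 21.7% of its length in preadipocyte LADs, 41.7% in double knockdown LADs and 0 in the other lists. Of 25 lipid storage and adipokine genes none touched a core and 22 were in no LAD. Cd36, a fatty acid transporter, and Pck1, which makes the glycerol backbone of triglycerides, were wholly in preadipocyte LADs and at 0 in the 3 adipocyte lists, and Acaca, of fatty acid synthesis, had 18.5% in Tmem120a knockdown LADs only. For these lists the count of 0 allows shares of up to 17.6% of 18 genes and up to 13.3% of 25 genes by the Wilson interval, and these limits do not stand clear of the background.

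Proteasome subunits (39), histone genes (67), Hox genes (39) and mitochondrial ribosomal proteins (77) also had no member in contact with a core, with upper limits of 8.97%, 5.42%, 8.97% and 4.75%. Histone and Hox genes lie side by side in clusters, so their limits overstate the precision. Of the genes with Rpl or Rps symbols, 15 of 137 (10.9%, interval 6.75 to 17.3%) lay wholly in cores, and the interval includes the background. Of these 15, 13 carried the pseudogene suffix -ps. The other 2, Rpl10l and Rpl39l, are retrocopies known for testis expression, of 83 without the suffix. Collagens had 0 of 43 wholly in cores, with an upper limit of 8.20%, and 4 touching. Of 8 nuclear envelope genes none touched a core, with an upper limit of 32.4% that lies far above the background, while in the double knockdown list alone Lmnb1, which encodes the lamin used for the assay, was covered over 95.02% of its length and Lbr, the lamin B receptor, over 65.5%.

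Muscle genes, a list that does not hold Sgcz, met cores in 2 cases, both very long. Of the 20 listed genes none lay wholly in a core, with an upper limit of 16.1%, and the 2 that touched one were 10% of the list, so neither count stands clear of the backgrounds of 12.6 and 15.1%. Dmd, which encodes dystrophin, had 70.99% of its 2257 kb in 6 cores and was covered to 95.1%, 100%, 98.7% and 95.1% in the preadipocyte, adipocyte, Tmem120a knockdown and double knockdown lists. Ttn, which encodes titin, had 56.7% in cores and was covered to 98.9%, 91.0%, 87.3% and 81.2%. Of the 21 annotated entries of the list, 13 (61.9%) were in no LAD list, near the 63.7% of all protein-coding genes.

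Promoters of genes in cores differed from those outside, as RefSeq sequences (GRCm38.p6) from 250 bases before to 50 after the start showed. A sequence was found for 2043 of 3128 genes that start in a core and for 9613 of 14251 genes in no LAD. Matching was uneven within the cores, with 949 of 1135 olfactory and vomeronasal receptor genes (83.6%) and 1094 of 1993 other genes (54.9%), so values over all core promoters give the receptors more weight than their number of genes does. The median GC content was 40% in cores against 59.7% in no LAD, and the median number of CG dinucleotides in 300 bases was 2 against 19. At least 10 CG dinucleotides were present in 12.9% of core promoters and 72.8% of those outside. The letters TATAAA, searched on both strands, were present in 30.7% of core promoters, 8.57% of those in no LAD and 12.9% of all 14960 promoters matched.

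The receptors and the other genes are therefore also given apart. The 949 core promoters of receptors had a median GC content of 34.7%, 1 CG dinucleotide and TATAAA in 43.6%. The 1094 other core promoters had 47.7%, 3 CG dinucleotides and TATAAA in 19.6%. The last 150 bases before the start are shown for Robo2 and Grm7, of 2 of the 3 longest cores, Olfr1006, of the core with the most genes, and Cyp2c37, of the longest core on chromosome 19, and beside them for Pparg, the central adipogenic transcription factor, and Plin1, which coats the lipid droplet, both in no LAD list. Capitals mark CG, the runs read 5′ to 3′ on the strand of the gene, and the positions are those of the same sequence in mm9, on the minus strand for Robo2, Olfr1006 and Plin1. The starts are those of RefSeq, which for Robo2 lies 1035 kb upstream of the gene's start in GENCODE vM1, still in the same core, and for the 5 others within 77 bases of it.
Robo2 chr16:75447539-75447688: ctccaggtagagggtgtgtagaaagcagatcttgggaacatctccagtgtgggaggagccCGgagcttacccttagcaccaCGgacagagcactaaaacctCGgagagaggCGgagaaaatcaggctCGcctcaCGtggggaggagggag
Grm7 chr6:110595356-110595505: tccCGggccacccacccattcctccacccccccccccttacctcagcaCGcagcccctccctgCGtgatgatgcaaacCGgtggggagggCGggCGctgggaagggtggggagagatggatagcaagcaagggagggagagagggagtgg
Olfr1006 chr2:85518899-85519048: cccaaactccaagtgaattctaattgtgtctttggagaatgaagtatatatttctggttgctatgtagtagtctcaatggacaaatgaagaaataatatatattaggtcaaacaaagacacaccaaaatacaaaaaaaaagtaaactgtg
Cyp2c37 chr19:40066764-40066913: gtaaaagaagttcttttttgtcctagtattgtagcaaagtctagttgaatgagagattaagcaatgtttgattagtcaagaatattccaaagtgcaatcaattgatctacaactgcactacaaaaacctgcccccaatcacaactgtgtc
Pparg chr6:115311012-115311161: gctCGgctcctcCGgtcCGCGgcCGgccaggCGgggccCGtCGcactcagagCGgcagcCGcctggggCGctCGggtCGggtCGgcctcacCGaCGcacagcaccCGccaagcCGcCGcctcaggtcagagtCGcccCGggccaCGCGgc
Plin1 chr7:86877663-86877812: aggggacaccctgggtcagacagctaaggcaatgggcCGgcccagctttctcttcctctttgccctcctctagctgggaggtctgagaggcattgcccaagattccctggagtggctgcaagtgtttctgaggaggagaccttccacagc

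The runs held 6 CG dinucleotides for Robo2, 6 for Grm7, 0 for Olfr1006 and 0 for Cyp2c37, against 23 for Pparg and 1 for Plin1. In these examples a start within a core could thus carry CG dinucleotides, and a start outside LADs could carry almost none.

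MicroRNAs, short RNAs that silence mRNAs through their seed (bases 2 to 8), were in cores for 292 of 1577 annotated genes, a background of 18.5%, and for 65 of the 529 with Mir symbols (12.3%). Most of the 65 lay in 2 clusters. A core of 209 kb on chromosome 2 (chr2:10416918-10625790) held 30, of the Mir297, Mir466, Mir467 and Mir669 families. A core of 155 kb on the X chromosome (chrX:64041857-64197077) held 14, namely Mir883b, Mir471, Mir741, Mir463, Mir880, Mir878, Mir881, Mir871, Mir470 and 5 Mir465 copies. The remaining 21 lay in 18 cores. RefSeq mature sequences (GRCm38.p6) were matched for 31 of the 65 genes.

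The X cluster is shown because its copies share seeds, with the seed in capitals.
miR-465a-5p: uAUUUAGAauggcacugauguga
miR-465b-5p: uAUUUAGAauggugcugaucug
miR-465c-5p: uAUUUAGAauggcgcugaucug
miR-465a-3p: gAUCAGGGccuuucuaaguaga
miR-741-5p: uACGUAGAuugguaccuaucaug
miR-471-5p: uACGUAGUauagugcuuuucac

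The 5p products of miR-465a, b and c had the seed AUUUAGA in common, and a 5p product with it was matched for 4 Mir465 genes. The 3p products of miR-465a, b and c, of which a single form is shown because the 3 are identical, had the seed AUCAGGG. The 5p seeds of miR-741 and miR-471 differed in their last base. Of the 21 genes outside the clusters 17 had a mature sequence. Products of 6 of these are shown as examples, picked after the values were seen, among them miR-9 and miR-128, which are abundant in brain. The other 11 were Mir489, Mir504, Mir653, Mir680-1, Mir683-1, Mir683-2, Mir876, Mir1187, Mir1899, Mir1952 and Mir2136.
miR-9-5p: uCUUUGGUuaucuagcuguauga
miR-128-3p: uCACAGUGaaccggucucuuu
miR-204-5p: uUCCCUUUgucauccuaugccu
miR-488-3p: uUGAAAGGcuguuucuugguc
miR-551b-3p: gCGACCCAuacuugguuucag
miR-592-5p: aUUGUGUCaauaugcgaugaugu

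Mir9-2 lay in a core of 467 kb on chromosome 13, Mir128-2 in 887 kb on chromosome 9, Mir204 in 481 kb on chromosome 19, Mir488 in 239 kb on chromosome 1, Mir551b in 876 kb on chromosome 3 and Mir592 in the 1120 kb core of Grm8 on chromosome 6. Mir9-2 and Mir128-2 are numbered copies, so other genes can give the same mature product. The positions hold for these copies only. The 6 printed seeds were all different.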

How the data were processed

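LaminB1-DamID was available for 8 libraries of 3T3-L1 cells, 1 Dam and 1 LaminB1-Dam library for each of 4 conditions. The authors mapped reads to mm9 with BWA, took log2(LaminB1-Dam/Dam) for each DpnI fragment and called LADs by segmentation with DNAcopy, and the lists they deposited hold start and end positions with no score. Reads and ratios were not analysed here, depth is unknown, and the treatment of reads that map to several places is not given in the sources used here. The abbreviation in a list's name gave its condition, and the differential regions listed for preadipocytes were read as released and those for control adipocytes as recruited. No columns of per-sample values were left unused (0).

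Positions were intersected with Python 3.11.15, numpy 2.4.6 and scipy 1.17.1, and stretches of at least 100 kb were kept. Interval code was tested on simulated lists. Sequence was read from NCBIM37, the assembly of mm9, and genes from GENCODE vM1. Promoters and miRNAs came from RefSeq (GRCm38.p6), matched by symbol, and no position of that build is printed. The sequence of 1 of the 3 longest stretches in no LAD list is not reported here. A stretch of N filling most of the first 5 kb outside a border made it a border at an assembly gap.

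Members and lists were chosen with earlier results of these data known. Named were the 10 longest cores, the longest of each chromosome, the core with most genes, the 3 shortest cores and 3 longest stretches left out, the protein-coding genes of the 5 longest cores, the 10 longest genes wholly in a core, genes starting within 10 kb of a border of all 4 lists (up to 10), and up to 5 members of each list. Genes with most sequence in cores, antigen receptor segments, miRNAs, promoters and border groups were added after values were seen, as were the exceptions named within lists. Repeat entries and genes outside a family were also taken off the lists after values were seen. Without replicates no test between conditions was possible. Regions and genes are not replicates, so only counts, medians and Wilson intervals at 95% are given, and these cover counting error alone. Alternatives changed the minimum length, the closing of gaps, the lists used, the chromosomes, the rule for a gene in a core and the distance at which borders are shared.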

Additional observations from a re-analysis of the deposited data

How the results depend on the processing

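A share of genes or borders was taken to move when it left the Wilson interval of its main value, and any other value when it changed by over 1.5 times. By these limits 80 of 101 values under the alternatives stayed and 21 moved. The limit of 1.5 times could hardly be crossed by the median GC content of cores, since single cores ran only from 34.5 to 48.6%. The same holds for their GATC density, so that these values stayed says little. Intersecting only LADs of at least 100 kb cannot change a core, and its 9 values on cores are not counted. With a minimum of 50 kb there were 3271 cores with a median of 148.8 kb, 13.7% of protein-coding genes lay wholly in them and 1596 met no gene. With 200 kb there were 1275 cores with a median of 382.9 kb, 10.4% of genes and 488 without a gene, and the Tmem120a knockdown and double knockdown lists set 28.1% and 57.1% of borders. Closing gaps under 50 kb in each list gave 1158 cores with a median of 473.3 kb, 16.4% of genes and 260 without a gene, since cores merged. Closing gaps under 10 kb in the intersection gave 13.7% of genes. Without the preadipocyte, Tmem120a knockdown or double knockdown list, 13.1%, 13.7% and 14.3% of genes lay wholly in cores, and without the last 602 cores met no gene. The share of genes was 13.98% by start site and 15.1% by any overlap. The median GC content of cores minus that of stretches in no LAD ran from -4.57 to -3.36 percentage points over its 11 alternatives. No paired analysis was possible because no condition has a second pair of libraries, and for the same reason no replicate could be left out. Depth is unknown, so the precision of a LAD border is limited by the GATC sites and by 1 library pair for each list.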
